A study of Mus musculus with 4 samples.

Results

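The comparison described here sets retinal tissue given 4-hydroxytamoxifen (4-OHT) together with vitamin E against tissue given only the ethanol vehicle, on 2 of the 4 arrays of the series. Its members were chosen by label: the vehicle array and the array given 4-OHT (5 µM) plus vitamin E (400 µM). The other arrays, which had the same dose of 4-OHT alone or plus lutein (200 nM), are quoted only as levels or differences beside these. All 4 groups were 3D-retinas, optic-cup-like tissue grown in floating culture from a single mouse induced pluripotent stem cell line in which the rod gene promoter Nrl drives green fluorescent protein. Structures with bright fluorescence were picked by hand and treated on differentiation day 23. RNA was taken on day 25, the labels' onset of photoreceptor degeneration, and each array holds RNA pooled from 24 3D-retinas. No array of vitamin E without 4-OHT was used, so what vitamin E does by itself and what it does to the drug response cannot be told apart here. With 1 array per group no difference has a replicate check, and no p-value is given.

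4-OHT is an active metabolite of tamoxifen, a drug that binds estrogen receptors and is also known for toxicity to the retina. Vitamin E is a group of lipid-soluble antioxidants that sit in membranes and stop chains of lipid peroxidation, and the labels do not give the form used. Photoreceptor outer segments are rich in polyunsaturated fatty acids, and vitamin E is known to be concentrated there. The comparison addresses which genes still differed from untreated tissue when the drug was given with this supplement.

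A level is the log2 of a probe's signal minus the log2 of that array's 75th percentile over gene spots, so that 0 is the 75th percentile and each unit is a doubling. A difference is the supplemented level minus the vehicle level, in log2 units, and a gene was counted when the arrays were at least 2-fold apart. For probes printed at 10 spots per array, the SD over spots was 0.13 with vehicle and 0.11 with vitamin E. Combined, these gave an SD of 0.17 for a difference, the spot SD used below for dim and bright genes alike. In the dimmest 25% of these probes it was 0.30. This spot SD covers spot noise and not variation between cultures. A probe not well above background was set to the lowest signal that was, or to its own if higher, and its difference is then written as "at least". In bulk RNA, fewer cells of a type and less RNA per cell cannot be told apart.

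The tissue carried its labelled identity on both arrays. The rod markers Gnat1, Nrl, Nr2e3, Pde6b and Sag were all well above background on vehicle and supplemented arrays. Some defining markers of other tissues were not well above background on either array: Rpe65 and Best1 of pigment epithelium, Aif1, Cx3cr1, C1qa and P2ry12 of microglia, Cdh5 and Tek of endothelium, Cryaa, Crygd and Lim2 of lens, and the pluripotency genes Pou5f1 and Zfp42. Other genes of those lists were measured: 13 of 26 for pigment epithelium and melanin, 8 of 19 for microglia and macrophages, 5 of 18 for endothelial and mural cells, 11 of 25 for crystallins and lens, and 15 of 21 for pluripotency and epidermis. Among these, Dct, C1qb, Tmem119, Pecam1, Crybb3 and Tdgf1 were well above background on both arrays. The share of gene spots that the scanner software called well above background was 51.4% on the vehicle array and 52.0% on the supplemented array.

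Of 21364 genes and named regions measured, 233 (1.09%) were higher on the supplemented array by 2-fold or more and 423 (1.98%) lower by as much. The median difference was -0.01. Among the 13652 with a gene symbol the directions were balanced, at 150 (1.1%) higher and 146 (1.07%) lower, with 51.4% above 0 and 48.3% below, and 25.5% were higher and 22.7% lower by more than the spot SD. The excess of lower values came from other entries, of which regions named by position were only a part. Entries with other names also held more lower than higher. Of 2641 regions that the array names by position rather than by gene, 24 (0.909%) were higher and 102 (3.86%) lower, with 59.1% below 0 and 39.8% above. How the arrays were scaled moved this balance: scaled on spike-in RNA, the counts were 322 higher and 323 lower, and quantile normalization gave 262 and 312.

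Counted genes were mostly dim. The 25% of genes with the lowest mean signal held 109 of those higher and 274 of those lower, whereas the 25% with the highest held 10 and 6. In addition, 103 of the higher and 206 of the lower genes were well above background on a single array of the pair. After normexp background correction, which compresses dim signal, 83 genes were higher and 93 lower. Differences of genes near background are therefore given below with their value under that correction where it brings them under 2-fold or moves the fold by more than 1.5 times, except for genes beside bright spots that are named without values.

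**Figure D1:**
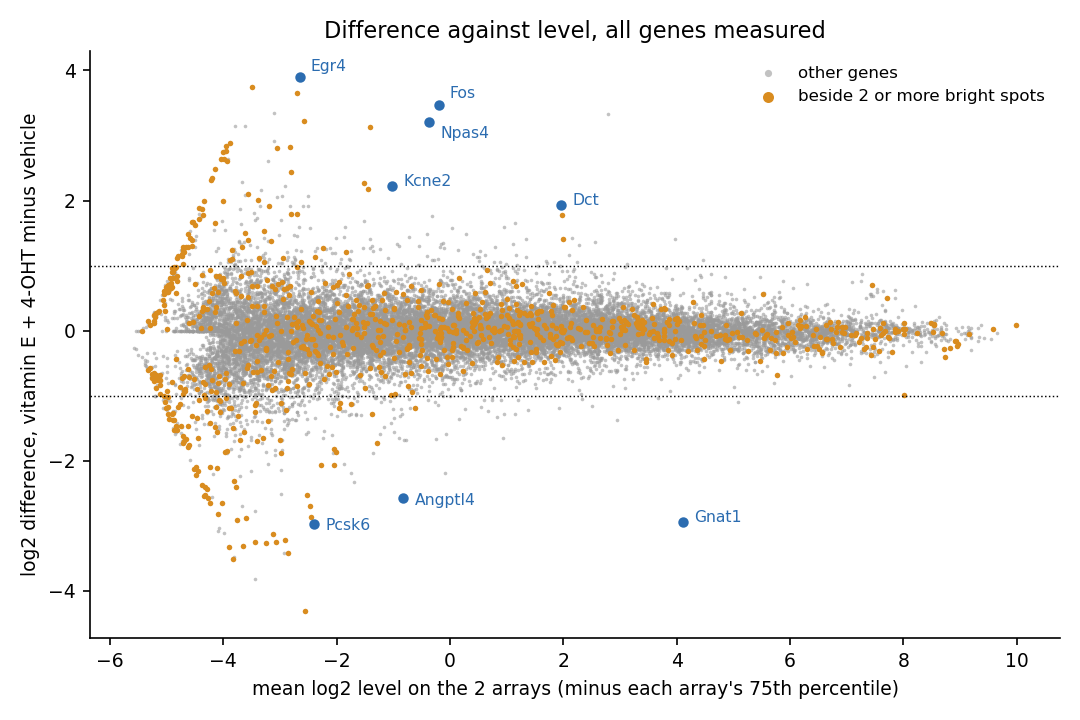
Difference between the supplemented and vehicle arrays (vertical axis, log2) against the mean level of the pair (horizontal axis, log2 relative to the 75th percentile), with 1 point per gene and dotted lines at 2-fold. Points spread out toward low signal, and orange points are genes whose probe lay beside at least 2 bright spots.

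Part of the counted genes lay beside bright spots. A spot was called bright where it exceeded the median of the other 3 arrays by more than 1 log2 unit, and the 6 nearest spots of each probe were examined. Of genes with no bright neighbour on the supplemented array, 0.70% were counted as higher, against 11.7% with 2 bright neighbours (30 of 257) and 40.7% with 4 (11 of 27). On the vehicle array, 1.42% of genes with no bright neighbour were counted as lower, against 12.9% with 2 (53 of 410). Genes with at least 2 bright neighbours made up 1.76% of all genes on the supplemented array and 2.63% on the vehicle array, but 27.0% of those counted as higher and 22.7% of those counted as lower. Leaving them out left 168 higher and 326 lower of 20440. For regions named by position the shares were 58.3% of those higher and 35.3% of those lower. The cause of the bright neighbourhoods was not tested, and genes that lay in them are marked as such below.

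**Figure D2:**
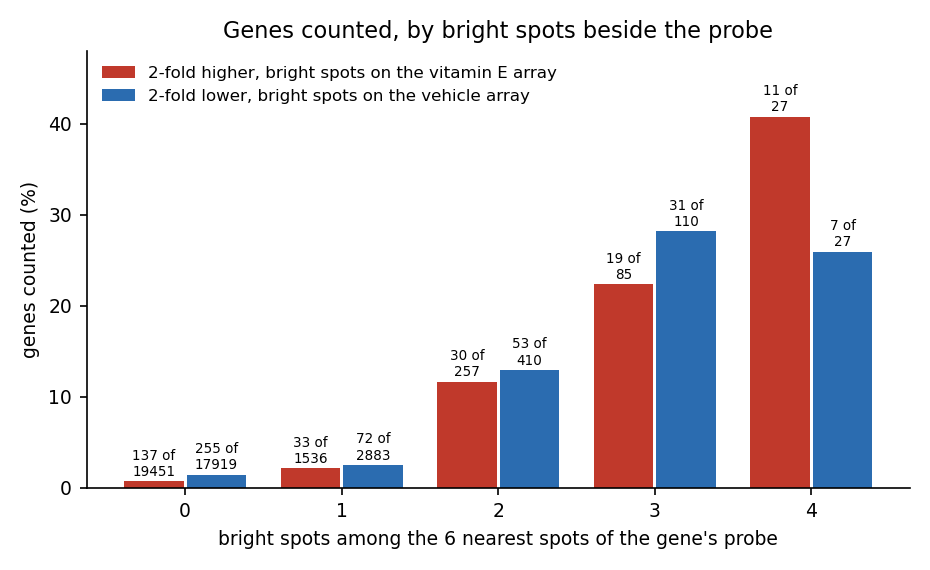
Percent of genes counted as at least 2-fold higher (by bright neighbours on the supplemented array) and at least 2-fold lower (by bright neighbours on the vehicle array), for 0 to 4 bright spots among the 6 nearest; numbers on the bars are genes counted of genes in the class. The share climbs from 0.70% to 40.7% on the supplemented array and is 1.42%, 28.2% and 25.9% at 0, 3 and 4 bright neighbours on the vehicle array.

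Among the lists, immediate early genes had the highest medians above vehicle, except with normexp, where cholesterol synthesis genes (0.47) were above them. They are transcribed within minutes of a stimulus, without new protein synthesis, and many encode transcription factors. The promoters of 3 are shown because these genes had some of the largest differences of the group, at probes with fewer than 2 bright neighbours. Each sequence is the 250 bases before the annotated start, on the gene's strand, from RefSeq on GRCm38.p6. Capitals mark the cyclic AMP response element core TGACGT or, on the other strand, ACGTCA. The stretches are chr12:85473640-85473889 (plus strand) for Fos, chr19:4989972-4990221 (minus strand) for Npas4 and chr6:85513590-85513839 (minus strand) for Egr4.
Fos: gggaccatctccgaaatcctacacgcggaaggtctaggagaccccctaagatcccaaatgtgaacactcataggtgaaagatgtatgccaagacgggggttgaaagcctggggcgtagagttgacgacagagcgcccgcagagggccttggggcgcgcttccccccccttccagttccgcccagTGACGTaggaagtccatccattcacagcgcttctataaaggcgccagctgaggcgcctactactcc
Npas4: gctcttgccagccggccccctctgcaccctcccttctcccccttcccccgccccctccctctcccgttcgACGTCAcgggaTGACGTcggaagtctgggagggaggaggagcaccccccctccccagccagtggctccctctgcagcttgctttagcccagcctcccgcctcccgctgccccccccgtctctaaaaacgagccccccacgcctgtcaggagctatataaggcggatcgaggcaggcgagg
Egr4: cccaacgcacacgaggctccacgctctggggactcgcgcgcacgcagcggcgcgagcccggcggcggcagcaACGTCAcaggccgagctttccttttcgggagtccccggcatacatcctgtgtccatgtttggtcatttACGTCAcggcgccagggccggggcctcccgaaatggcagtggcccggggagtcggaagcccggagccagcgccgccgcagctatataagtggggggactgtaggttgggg
The match in Fos begins 66 bases before the start, those in Npas4 180 and 169 bases before it, and those in Egr4 178 and 110 bases before it. In all, 8 of 22 promoters (36.4%) of the list of EGR, NR4A and neuronal activity genes held this motif on either strand, against 6.56% of 27025 promoters.

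Fos, a subunit of the AP-1 factor, measured -1.94 on the vehicle array, 1.54 with 4-OHT and vitamin E, 3.09 with 4-OHT alone and 2.92 with lutein. Its probe (mm9, chr12:86817900-86817959) was printed at 10 spots, and the supplemented array stood 3.47 log2 units, or 11.1-fold, above vehicle. Thus the vehicle level was the lowest of the 4, and the supplemented level lay between it and the other drug-treated arrays.

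The same order held for Npas4, an activity-dependent factor of neurons (chr19:4984356-4984415). Its levels were -1.97 with vehicle, 1.24 with vitamin E, 4.02 with 4-OHT alone and 2.99 with lutein, a supplemented difference of 3.21 (9.26-fold; 2.62 with normexp). Egr1, a zinc finger factor of the same class, measured 1.12, 4.45, 5.61 and 5.60 on those arrays, a difference of 3.33. Egr4 was not well above background with vehicle (-4.92) and measured -0.39 with vitamin E, 0.16 with 4-OHT alone and -0.05 with lutein. It was at least 14.8-fold higher than vehicle with the supplement (a bound of 3.89 log2 units, or 2.30 with normexp). For Egr4 the 3 drug-treated arrays lay close together, all far above vehicle.

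Of 11 AP-1 factors measured, 9 were above vehicle (51.4% of all genes with a symbol), only Fos was past 2-fold, and the median difference was 0.75. The same list stood at a median of 2.10 with 4-OHT alone and 1.70 with lutein, each over 12 genes and against the same vehicle array. Each such median covers the genes measured in its own comparison, so a gene above background only on that array can enter it. Jun, the partner of Fos, measured 5.49, 6.25, 7.51 and 7.04 on the vehicle, vitamin E, 4-OHT and lutein arrays, a supplemented difference of 0.76. Junb (0.91) and Fosb (0.73) lay at similar distances from vehicle. Of 28 EGR, NR4A and neuronal activity genes, 6 were at least 2-fold higher (1.1% of all genes with a symbol). None was lower by that much, 23 were above 0 (51.4% of all genes with a symbol), and the median was 0.58. It was 1.46 with 4-OHT alone and 1.16 with lutein, each over 29 genes. Under normexp the medians were 0.43 for the AP-1 factors and 0.40 for this list.

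The members past 2-fold included Egr2 and Ier2. Egr2 was not well above background with vehicle and was at least 4.24-fold higher with vitamin E (1.01 log2 units with normexp), and Ier2, a small nuclear protein of the early response, measured -2.02 with vehicle, -0.73 with vitamin E, 0.90 with 4-OHT alone and 0.62 with lutein, a difference of 1.29 (0.92 with normexp, under 2-fold). Ccn1, a secreted matrix protein, was at least 4.21-fold higher (0.97 with normexp, under 2-fold). By more than the spot SD, 8 of the 11 AP-1 factors were higher and 1 lower. Of the 28 EGR, NR4A and neuronal activity genes, 20 were higher and 1 lower by as much (25.5% and 22.7% of all genes with a symbol). Some of these lists lay nearer to vehicle than the genes past 2-fold. Arc, which acts at synapses, differed by 0.49. Vgf, a secreted neuropeptide precursor, measured 1.43, 1.28, 3.64 and 2.92 on the vehicle, vitamin E, 4-OHT and lutein arrays, so that its supplemented level was on the vehicle side of a wide gap. Dusp6 (0.90) and Dusp1 (0.86), phosphatases that switch MAP kinases off, were the largest of 19 MAP kinase feedback genes, whose median was 0.11.

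**Figure D3:**
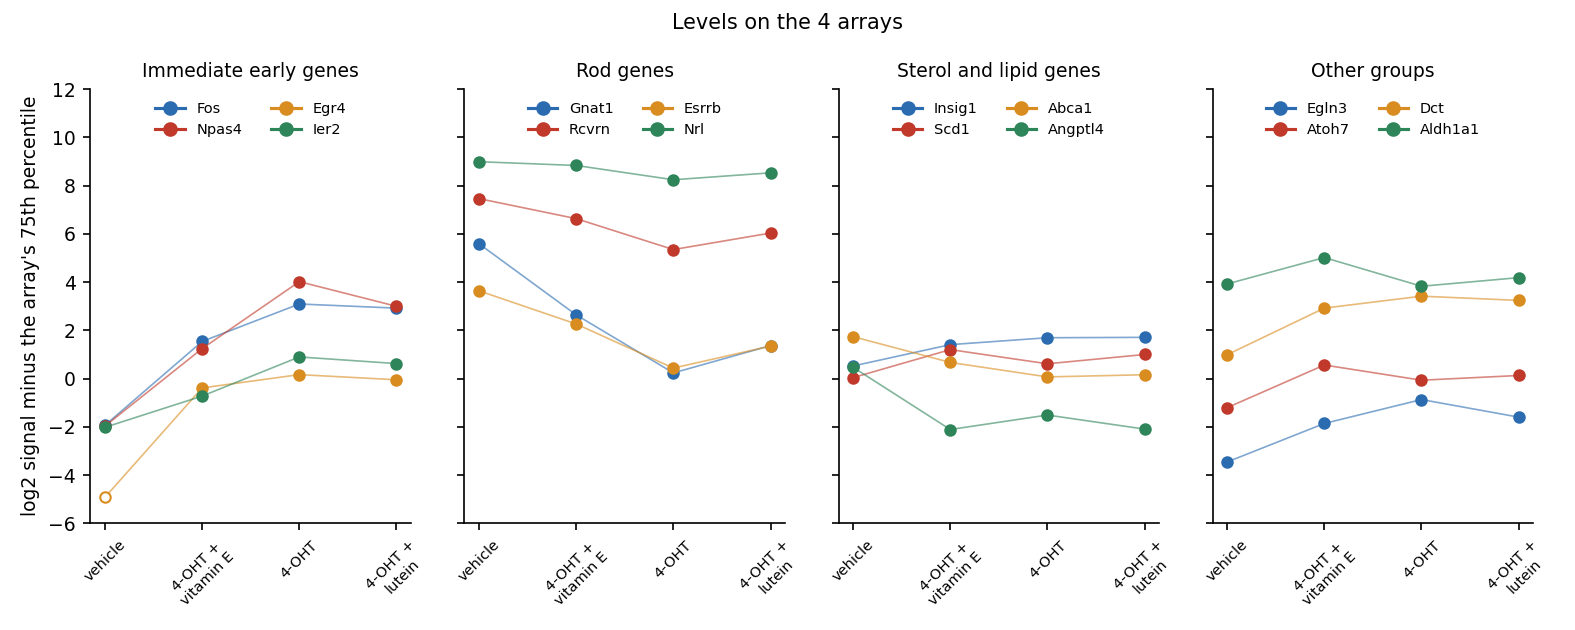
Levels (log2 relative to the 75th percentile) of 16 genes on the 4 arrays, in panels of early response, rod, lipid, and hypoxia or other genes; an open circle is a probe not well above background, and lines only join the points of a gene. For Fos, Npas4 and Gnat1 the supplemented array lies between vehicle and 4-OHT alone, whereas Angptl4 and Aldh1a1 are farther from vehicle with vitamin E than with 4-OHT alone.

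Genes of cell stress lay a little above vehicle, or near it. The integrated stress response is the program that phosphorylated eIF2α starts, with ATF4 and CHOP (Ddit3) as its factors. Of 34 members measured, 30 were above vehicle, 20 of them by more than the spot SD (25.5% of all genes with a symbol). Past 2-fold were 2 (1.1% of all genes with a symbol), and the median difference was 0.23. Against the same vehicle array the list's median was 1.88 with 4-OHT alone (36 genes) and 1.80 with lutein (35 genes). Nupr1, a stress-induced chromatin protein, measured -1.60 with vehicle, -0.27 with vitamin E, 2.72 with 4-OHT alone and 1.87 with lutein, a supplemented difference of 1.33 (2.52-fold). Stc2, a secreted glycoprotein, was the other, at 1.03 (0.55 with normexp, under 2-fold).

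Ppp1r15a, which directs the removal of the phosphate from eIF2α, stood just under the limit at 0.98. Atf3, induced in this program, measured 0.45, 1.26, 4.83 and 4.35 on the vehicle, vitamin E, 4-OHT and lutein arrays, a difference of 0.81. Ddit3 itself measured 2.28 with vehicle and 2.29 with vitamin E, against 3.82 and 3.70 on the other arrays. Atf4 mRNA differed by 0.06, which is within the spot SD, as did Ddit3. Aminoacyl-tRNA synthetases had a median of 0.05 over 20 genes, and endoplasmic reticulum chaperones 0.14 over 24.

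The metallothioneins Mt1 and Mt2, small zinc-binding proteins, were above vehicle by more than the spot SD but less than 2-fold. Mt1 measured 3.51 with vehicle, 4.31 with vitamin E, 7.98 with 4-OHT alone and 7.27 with lutein, a supplemented difference of 0.79, and Mt2 differed by 0.53. The secreted stress factor Gdf15 differed by 0.45 and Hmox1, the heme-degrading enzyme controlled by NRF2, by 0.75. Socs3, a feedback inhibitor of cytokine signalling, was below vehicle with vitamin E, at -1.63 against -0.97, and above it with 4-OHT alone (2.83) and lutein (1.83). The chemokines Ccl2 and Cxcl10 and the glial filament gene Gfap were not well above background on either array of the comparison.

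Lists for antioxidant defence, heat shock and vitamin E handling had medians near 0, and lipid peroxidation genes lay a little above vehicle. NRF2 pathway genes had a median of -0.04 (27 genes), antioxidant enzymes -0.03 (24 genes, 0.07 when scaled on spike-in RNA) and heat shock genes -0.03 (20 genes). The list for lipid peroxidation, ferroptosis and iron had a median of 0.20 over 24 genes, and 0.13 without the 4 beside bright spots. By more than the spot SD, 12 were higher and 4 lower (25.5% and 22.7% of all genes with a symbol). Scd1, described below with the fatty acid genes, was past 2-fold. Gpx4, the enzyme that reduces lipid hydroperoxides in membranes, measured 7.63 with vehicle, 7.35 with vitamin E, 6.94 with 4-OHT alone and 7.25 with lutein, a supplemented difference of -0.28. Of 28 listed genes for vitamin E and carotenoid handling 17 were measured, with a median of 0.05, and with no filter on dim probes the median was -0.21. Ttpa, the transfer protein for α-tocopherol known mainly from liver, was not well above background on any of the 4 arrays.

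**Figure D4:**
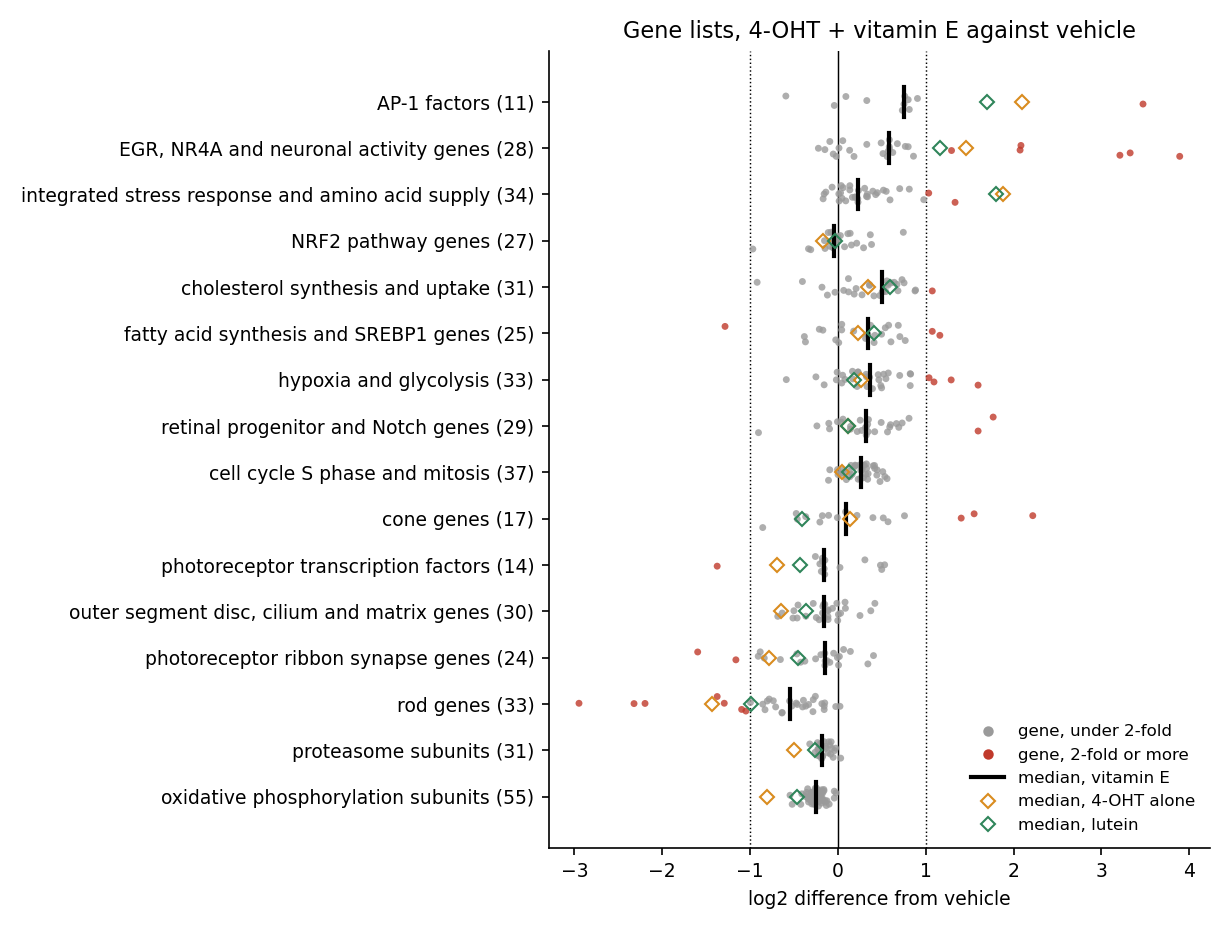
Log2 differences between the supplemented and vehicle arrays for the genes of 16 lists (points), with each list's median (bar) and, as diamonds, the list's medians for 4-OHT alone and for 4-OHT with lutein against the same vehicle array. Each median covers the genes measured in its own comparison. Rod genes and oxidative phosphorylation subunits lie almost wholly below 0, and cholesterol, hypoxia and cell cycle genes mostly above it.

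Most sterol synthesis genes were above vehicle. They are controlled by SREBP2, a membrane-bound factor that is cut and enters the nucleus when sterol in the endoplasmic reticulum is low. Hmgcs1 is shown because its promoter was the only 1 of the list to hold both the sterol regulatory element in the spelling TCACNCCAC and CCAAT boxes (on the other strand ATTGG). Matches are in capitals, and the stretch is chr13:119690101-119690350 (plus strand, GRCm38.p6, RefSeq).
Hmgcs1: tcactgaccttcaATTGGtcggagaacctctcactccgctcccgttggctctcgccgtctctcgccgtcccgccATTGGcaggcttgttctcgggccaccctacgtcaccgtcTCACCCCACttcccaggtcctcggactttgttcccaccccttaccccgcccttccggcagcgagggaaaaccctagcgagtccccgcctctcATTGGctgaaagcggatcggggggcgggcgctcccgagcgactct
The sterol element begins 137 bases before the start and the CCAAT matches 237, 176 and 45 bases before it. CCAAT, on either strand, was in 19 of 22 promoters of the list (86.4%) and in 34.5% of all promoters. The sterol element in this spelling was in 1 of 22, against 1.04% of all.

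Of 31 cholesterol synthesis and uptake genes, 26 were above vehicle, 23 of them by more than the spot SD (25.5% of all genes with a symbol). The other 5 were below, 3 of them by more than the spot SD (22.7% of all genes with a symbol). The list's median was 0.51, and 0.49 without genes beside bright spots. It was 0.34 with 4-OHT alone and 0.60 with lutein. Insig1, which holds the SREBP complex back, measured 0.52 with vehicle, 1.41 with vitamin E, 1.69 with 4-OHT alone and 1.71 with lutein, a supplemented difference of 0.88. The 3 drug-treated arrays lay together above vehicle.

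Enzymes along the pathway were also above vehicle. Hmgcs1 (0.56, beside 2 bright spots on the supplemented array) acts at its start, Mvd (0.67) in the mevalonate steps, and Fdft1 (0.68), Sqle (0.55), Lss (0.75) and Nsdhl (0.88) in squalene and sterol formation. Nsdhl measured 0.28 with vehicle, 1.16 with vitamin E, 0.66 with 4-OHT alone and 1.24 with lutein. Its level with vitamin E was thus nearer to lutein than to 4-OHT alone. Fdft1, which makes squalene, was alike: 2.82, 3.51, 3.06 and 3.43 on those arrays.

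Fatty acid synthesis genes had a median of 0.34 over 25, with 19 above vehicle and 6 below (51.4% and 48.3% of all genes with a symbol). Scd1, which puts a double bond into saturated fatty acids, measured 0.04 with vehicle, 1.20 with vitamin E, 0.61 with 4-OHT alone and 1.00 with lutein, a supplemented difference of 1.16 (2.24-fold). Fads1, a desaturase of polyunsaturated fatty acids, differed by 0.77. Srebf1, the gene of the factor that drives these enzymes, differed by 0.04. Acacb, the acetyl-CoA carboxylase that restrains mitochondrial fatty acid oxidation, was lower on all drug-treated arrays: -1.10 with vehicle, -2.39 with vitamin E, -2.16 with 4-OHT alone and -2.30 with lutein. Its supplemented difference was -1.28 (2.44-fold; -0.90 with normexp, under 2-fold).

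Some genes induced by oxysterols or fatty acids were below vehicle. Abca1, the cholesterol exporter and a target of LXR, measured 1.74 with vehicle, 0.67 with vitamin E, 0.07 with 4-OHT alone and 0.16 with lutein, a difference of -1.07 (2.10-fold; -0.97 when scaled on spike-in RNA, under 2-fold). Mylip, another LXR target, a ubiquitin ligase, differed by -0.92, while the list of 17 LXR and sterol efflux genes had a median of 0.04. Angptl4, a secreted inhibitor of lipoprotein lipase controlled by PPARs (chr17:33911880-33911939), was 5.97-fold lower than vehicle. Its levels were 0.47 with vehicle, -2.11 with vitamin E, -1.51 with 4-OHT alone and -2.09 with lutein. The difference from vehicle, -2.58, was among the 20 lowest of all genes with a symbol, and its level was farther from vehicle with vitamin E than with 4-OHT alone. Lysosomal genes were slightly and broadly above vehicle, 31 of 36 (51.4% of all genes with a symbol). Their median was 0.23, and none was past 2-fold. Cd63, a membrane protein of late endosomes, differed by 0.71.

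Rod genes were the list farthest below vehicle. Rods sense dim light through the G protein transducin and a phosphodiesterase that closes cyclic GMP-gated channels. Gucy2f is shown because it was among the lowest rod genes and its 250 bases upstream hold the core TAATCC, the site known for the photoreceptor factor CRX, on both strands (GGATTA is the reverse complement). The stretch is chrX:142196937-142197186 (minus strand, GRCm38.p6, RefSeq), with matches in capitals beginning 84 and 59 bases before the start.
Gucy2f: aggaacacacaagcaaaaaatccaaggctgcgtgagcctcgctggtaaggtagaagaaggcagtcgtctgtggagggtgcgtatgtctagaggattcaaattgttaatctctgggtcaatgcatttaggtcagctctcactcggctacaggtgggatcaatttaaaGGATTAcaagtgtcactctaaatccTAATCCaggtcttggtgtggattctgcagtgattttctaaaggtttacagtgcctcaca
This core was in 11 of 25 rod gene promoters (44.0%) and in 6.38% of all promoters.

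Of 33 rod genes measured, 32 were below vehicle, 28 of them by more than the spot SD (22.7% of all genes with a symbol). At least 2-fold lower were 7 (1.07% of all genes with a symbol). The median was -0.55, and -0.64 without the 5 beside bright spots. It was -1.44 with 4-OHT alone and -0.98 with lutein, each against the same vehicle array. Summed over the 33 genes, signal in units of the 75th percentile was 4287 with vehicle, 3228 with vitamin E, 1812 with 4-OHT alone and 2400 with lutein. Rod signal was thus highest with vehicle, and highest among the drug-treated arrays with vitamin E.

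The differences were uneven across the cascade. Gnat1, the transducin α subunit (chr9:107577023-107577082), measured 5.58 with vehicle, 2.64 with vitamin E, 0.23 with 4-OHT alone and 1.37 with lutein, a supplemented difference of -2.95 (7.71-fold lower). The supplemented level was the second highest.

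Genes of calcium feedback were among the lowest. Slc24a1, the rod sodium, calcium and potassium exchanger, measured -0.53 with vehicle, -2.85 with vitamin E, -4.00 with 4-OHT alone and -4.11 with lutein, a supplemented difference of -2.32 (-1.72 with normexp). Gucy2f, a guanylate cyclase that restores cyclic GMP, measured -0.65, -2.85, -3.53 and -3.20, a difference of -2.20 (-1.52 with normexp). For these 2 genes the supplemented level was nearer to the other drug-treated arrays than to vehicle. Guca1b, the calcium-binding activator of such cyclases, differed by -1.05 (-0.95 when scaled on spike-in RNA). Susd3, a membrane protein on the list, differed by -1.29 (-0.92 with normexp).

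Esrrb, an orphan nuclear receptor known for a role in rod survival, measured 3.63 with vehicle, 2.26 with vitamin E, 0.43 with 4-OHT alone and 1.35 with lutein. Its supplemented difference of -1.37 (2.59-fold) was the only 1 past 2-fold among 14 photoreceptor transcription factors, whose median was -0.15. Nrl, the factor that sets rod fate and drives the reporter, differed by -0.16 (beside 3 bright spots on the vehicle array), Crx by -0.17 and Nr2e3 by 0.02. Some abundant rod genes were likewise near vehicle: Pde6b, a phosphodiesterase subunit, by -0.02 and Sag, rod arrestin, by -0.18. The phosphodiesterase subunits Pde6g and Pde6a were farther below it, at -0.995 (-1.05 with normexp, past 2-fold) and -0.73. The Pde6g probe lay beside 3 bright spots on the vehicle array. Rcvrn, recoverin, measured 7.46 with vehicle, 6.63 with vitamin E, 5.35 with 4-OHT alone and 6.03 with lutein, a difference of -0.83, and Cnga1, the rod channel subunit, differed by -0.80. Rod genes at the vehicle level and rod genes several-fold below it were thus present in the same RNA.

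Other photoreceptor lists were closer to vehicle. Outer segment disc, cilium and matrix genes had a median of -0.15 over 30, none past 2-fold. Ribbon synapse genes had a median of -0.15 over 24, with 2 at least 2-fold lower (1.07% of all genes with a symbol). Cabp4, a calcium-binding protein of the photoreceptor terminal, differed by -1.60, but the array annotates its probe on mm9 chromosome 11 whereas RefSeq places the gene on 19, so this value is uncertain. Lrit3, a synaptic protein needed for signalling to bipolar cells, was at least 2.24-fold lower (-0.45 with normexp).

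Cone genes lay on both sides of vehicle. Of 17 measured, 9 were above and 8 below vehicle, with a median of 0.09. At least 2-fold higher were 3 (1.1% of all genes with a symbol), and none was lower by that much. Ccdc136, a member of the cone list, measured 3.27 with vehicle, 4.68 with vitamin E, 4.56 with 4-OHT alone and 4.63 with lutein, a difference of 1.40 (2.65-fold). Kcne2, a potassium channel subunit, measured -2.13, 0.09, 1.56 and -0.33, a difference of 2.22 (4.66-fold). Opn1sw, the short-wavelength cone opsin, was not well above background with vehicle and was at least 2.93-fold higher with vitamin E (0.69 with normexp, under 2-fold). Cone arrestin Arr3 differed by 0.57, with another probe at 0.13, and cone transducin Gnat2 by -0.11.

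Mitochondrial respiration genes were lower by small and even amounts. All 55 oxidative phosphorylation subunits measured were below vehicle, 43 by more than the spot SD and none by 2-fold, with a median of -0.25 (-0.80 with 4-OHT alone, -0.46 with lutein). Of all genes with a symbol 48.3% were below 0 and 22.7% by more than the spot SD. Scaled on spike-in RNA, which shifted the median of all genes to 0.09, the list's median was -0.15. Ndufa4, a subunit of cytochrome oxidase, measured 6.63 with vehicle, 6.08 with vitamin E, 5.31 with 4-OHT alone and 5.80 with lutein, a difference of -0.54. Ndufa5, of complex I, differed by -0.52, with a second probe at -0.33. Proteasome subunits had a median of -0.18, with 30 of 31 below 0 and 16 past the spot SD (22.7% of all genes with a symbol). Cytosolic ribosomal proteins served as a contrast: of 47, none was past the spot SD, and their median of -0.03 turned to 0.07 when scaled on spike-in RNA. Many of their probes, and some of the respiration genes' probes, are annotated on another chromosome than the gene, so copies and pseudogenes may share that signal. In all this held for 66 of 1282 named or listed genes.

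**Figure D5:**
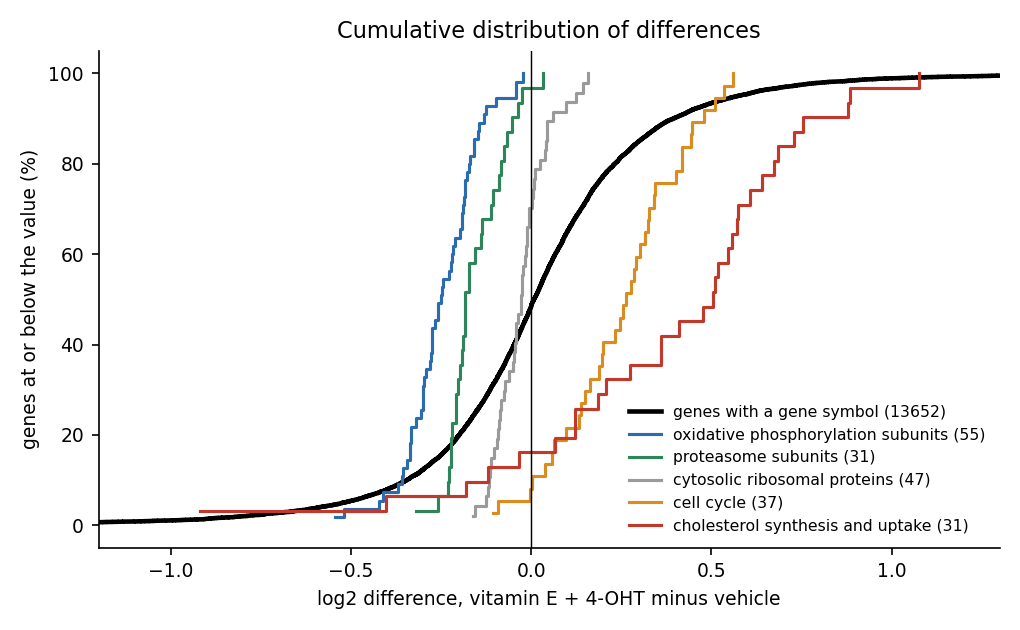
Cumulative distribution of log2 differences between the supplemented and vehicle arrays for all genes with a symbol and for 5 lists (vertical axis, percent of genes at or below the value). Ribosomal proteins rise steeply near 0, oxidative phosphorylation subunits lie wholly below 0 (median -0.25), and cholesterol genes are shifted furthest to the right (median 0.51).

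Hypoxia and glycolysis genes were above vehicle. Low oxygen stabilises HIF-1α, which binds near such genes at sites with the core ACGTG. Hk2, which traps glucose in the cell, is shown because its promoter held that core more than once, with CACGT as the reverse complement, at chr6:82774455-82774704 (minus strand, GRCm38.p6, RefSeq). The capitals begin 226 and 52 bases before the start.
Hk2: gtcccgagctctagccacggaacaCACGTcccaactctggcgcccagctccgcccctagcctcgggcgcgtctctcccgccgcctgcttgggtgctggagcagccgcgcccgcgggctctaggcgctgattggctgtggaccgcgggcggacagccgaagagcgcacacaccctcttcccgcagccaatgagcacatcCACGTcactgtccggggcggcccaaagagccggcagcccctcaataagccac
The core was in 15 of 31 promoters of the list (48.4%), against 16.6% of all. It was also in 40.9% of the EGR, NR4A and neuronal activity promoters and 33.3% of the AP-1 promoters. The shares were 13.6% for the cholesterol list and 4% for rod genes. The core overlaps other motifs such as the E-box, and the match 52 bases before the Hk2 start runs into ACGTCA, the cyclic AMP response element core.

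Of 33 genes on this list, 28 were above vehicle, 23 by more than the spot SD (25.5% of all genes with a symbol). At least 2-fold higher were 4 (1.1% of all genes with a symbol), and the median was 0.36 (0.27 with 4-OHT alone, 0.19 with lutein). Egln3, a prolyl hydroxylase that tags HIF-1α for breakdown, measured -3.46 with vehicle, -1.86 with vitamin E, -0.87 with 4-OHT alone and -1.60 with lutein, a difference of 1.60 (3.02-fold; 0.90 with normexp, under 2-fold). P4ha2, which hydroxylates collagen, differed by 1.29 (2.45-fold). Pdk1, which blocks entry of pyruvate into the mitochondrion, measured -0.76, 0.33, 0.34 and 0.20 on the vehicle, vitamin E, 4-OHT and lutein arrays, a difference of 1.09 (0.91 with normexp, under 2-fold). Hk2 itself measured 1.19, 2.22, 2.15 and 2.09, a difference of 1.04 (2.05-fold). Vegfa, the angiogenic factor, differed by 0.83 with vitamin E, and its level was 2.15 with vehicle, 2.98 with vitamin E, 4.39 with 4-OHT alone and 3.83 with lutein. Pdk1 and Hk2 were thus nearly equal on the 3 drug-treated arrays, and Vegfa was not.

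Progenitor and cell cycle genes were higher with the supplement. Of 29 retinal progenitor and Notch genes, 24 were above vehicle and 2 past 2-fold (51.4% and 1.1% of all genes with a symbol). Their median was 0.32 (0.12 with 4-OHT alone and 0.12 with lutein). Their summed signal was 303 with vehicle, 365 with vitamin E, 314 with 4-OHT alone and 343 with lutein. Atoh7, the factor that makes progenitors competent to form ganglion cells, measured -1.21 with vehicle, 0.56 with vitamin E, -0.07 with 4-OHT alone and 0.13 with lutein, a difference of 1.77 (3.41-fold), and its other probe gave a larger difference. Fgf15, a growth factor of the embryonic retina, measured -2.65, -1.06, -1.76 and -1.15, a difference of 1.60 (3.02-fold). The homeobox factor Lhx2 of early eye development measured 2.81, 3.47, 2.92 and 3.15, a difference of 0.67. In Atoh7, Fgf15 and Lhx2 the supplemented array was the highest of the 4, though for Fgf15 the lutein array was close to it.

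Of 37 genes of S phase and mitosis, 34 were above vehicle, 25 by more than the spot SD (25.5% of all genes with a symbol) and none by 2-fold, and the median was 0.26 (0.04 with 4-OHT alone, 0.12 with lutein). Top2a, the topoisomerase of dividing cells, differed by 0.45 and Mki67, the Ki-67 antigen, by 0.40. Ganglion cell markers, by contrast, had a median of -0.08 over 25. Whether a different mix of progenitors and rods among the picked 3D-retinas takes part in these differences was not tested.

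Matrix genes had a median of 0.31, with 21 of 26 above vehicle (51.4% of all genes with a symbol). Col4a2, a basement membrane collagen, measured -2.05 with vehicle, -0.78 with vitamin E, -1.04 with 4-OHT alone and -1.08 with lutein, a difference of 1.27 (2.41-fold; 0.87 with normexp, under 2-fold), and Col4a1 differed by 0.55. Of 18 listed endothelial and mural markers 5 were measured, with a summed signal of 21.8 with vehicle and 21.5 with vitamin E. Among them Pecam1 differed by -0.24, and Cldn5, a tight junction protein, was at least 3.12-fold higher (0.86 with normexp, under 2-fold).

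Of 12 interferon response genes measured, 5 were above vehicle and 7 below, with a median of -0.04, and those above included genes of antigen presentation. The class I genes H2-K1 and H2-D1 display peptides on the cell surface, and H2-Ab1 does so in class II. H2-K1 measured 1.62 with vehicle, 2.94 with vitamin E, 3.65 with 4-OHT alone and 3.31 with lutein, a difference of 1.32 (2.49-fold) at a probe of 10 spots. H2-Ab1 measured 0.33, 1.98, 2.19 and 1.37, a difference of 1.66 (3.15-fold; 1.78 at its other probe), and H2-D1 differed by 0.92. Class I genes are near-identical to each other, so their probes may share signal. B2m, the common light chain, differed by 0.39. Ifit2, an interferon-induced RNA-binding protein, was at least 1.88-fold lower and lay beside 2 bright spots on the vehicle array. H2-Ab1 is not on the interferon list, and no list of antigen presentation genes was used. Of 19 listed microglia and macrophage markers 8 were measured, with a summed signal of 14.8 with vehicle and 14.6 with vitamin E, and Csf1r differed by -0.16 and Tmem119 by -1.57 (-0.67 with normexp).

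Markers of pigment cells were mixed. Dct, an enzyme of melanin synthesis, measured 0.99 with vehicle, 2.92 with vitamin E, 3.41 with 4-OHT alone and 3.24 with lutein, a difference of 1.93 (3.81-fold; 1.86 at its other probe). Of 26 listed pigment epithelium and melanin genes 13 were measured, with a median of 0.25 and 10 above vehicle (51.4% of all genes with a symbol). Their summed signal was 8.05 with vehicle and 15.5 with vitamin E. Most of that rise came from Dct, and part of it from Rdh5 (0.73 with vehicle, 1.62 with vitamin E). With no filter on dim probes the median of the list was -0.13. Tyrp1 differed by 0.52 and Mitf, the master factor of pigment cells, by 0.07. Müller glia, bipolar, and amacrine and horizontal markers had medians of 0.10, 0.09 and -0.05.

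A few genes of steroid and retinoid metabolism set the supplemented array apart in level. Aldh1a1, a retinaldehyde dehydrogenase that makes retinoic acid in the dorsal retina, measured 3.92 with vehicle, 5.01 with vitamin E, 3.82 with 4-OHT alone and 4.18 with lutein, a difference of 1.09 (2.13-fold). Cyp1b1, a cytochrome P450 that acts on retinoids and estrogens, measured -0.48, 0.76, -0.23 and -0.08, a difference of 1.24 (2.36-fold). For both, the 3 other arrays lay close together and the supplemented array above them. Their lists were near vehicle: retinoic acid and visual cycle genes had a median of 0.02 and aryl hydrocarbon receptor and xenobiotic genes 0.11. Of the estrogen receptors, Esr1 was not well above background on either array and Esr2 differed by -0.34. Dio2, which activates thyroid hormone, was below vehicle by 1.83 log2 units (-0.90 with normexp, under 2-fold).

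The list of imprinted non-coding RNAs and neighbours held 2 genes at least 2-fold higher among 21 (1.1% of all genes with a symbol). By more than the spot SD, 9 were higher and 5 lower (25.5% and 22.7% of all genes with a symbol). Among those below vehicle, Airn differed by -0.84, with its detected probes between -0.84 and 0.02. Kcnq1ot1 differed by -0.77 (-1.07 with the mean of its probes, past 2-fold). Meg3, a maternally expressed long RNA, measured -0.82 with vehicle, 0.50 with vitamin E, 2.07 with 4-OHT alone and 0.28 with lutein, a difference of 1.32, with its detected probes between 0.91 and 1.32. Mirg, transcribed from the same cluster, differed by 1.58, but its probes ran from -0.27 to 1.58, their mean gave 0.64 and normexp gave 0.92, both under 2-fold.

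Among genes outside these lists, the lowest were dim. Pcsk6, a protease that activates growth factors, measured -0.91 with vehicle and -3.88 with vitamin E and was not well above background on the other arrays, a difference of -2.97 (7.85-fold; -1.71 with normexp). Gnat3, the taste transducin subunit, was 5.72-fold lower (-1.25 with normexp). Nr5a1, the nuclear receptor of steroid-forming cells, measured 0.59, -1.07, -0.97 and -1.27 on the vehicle, vitamin E, 4-OHT and lutein arrays, a difference of -1.66, and Cbln1, a synapse organiser, differed by -1.65. Cltrn, a membrane protein, measured 0.04, -1.65, -3.47 and -2.99, a difference of -1.69. Vwa3a and Ackr4, an atypical chemokine receptor, were well above background with vehicle alone, so that they were at least 14.1-fold and at least 11.2-fold lower (-2.36 and -2.11 with normexp), and each probe had 1 bright neighbour on the vehicle array. Neither was well above background on any drug-treated array.

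The highest outside the lists included Itga11, a collagen-binding integrin, which measured -3.55 with vehicle, -1.47 with vitamin E, -2.33 with 4-OHT alone and -2.06 with lutein, a difference of 2.07 (4.21-fold; 1.26 with normexp). Dclk3, a kinase of the doublecortin family, measured -3.47, -1.56, 0.25 and 0.03, a difference of 1.91 (3.76-fold; 1.19 with normexp). Crhbp, which binds the stress hormone CRH, measured -2.36, -0.68, -1.97 and -1.14, a difference of 1.68 (3.20-fold). Itga11 and Crhbp were highest with vitamin E, and Dclk3 was highest with 4-OHT alone. Several more of the largest differences belonged to genes beside bright spots. On the supplemented array these were Shisa9 (5.43-fold higher; 1.20 log2 units with normexp), Serinc2, Gbp10 and Gcm2 among genes measured on both arrays, and Map3k19, Ifnk, Irgm2, Ms4a3 and Tm6sf1 among the bounds, where 5 of the 6 largest were of this kind and Egr4 was the other. On the vehicle array they included Kcnrg (-2.87; -1.62 with normexp), Nme8 (at least 9.87-fold lower; -1.79) and Lgals2 (a bound of -3.41; -1.65). Shisa9 measured -4.02 with vehicle, -4.03 with 4-OHT alone, -3.31 with lutein and -1.58 with vitamin E, so that only the array with the bright neighbourhood stood out.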

How the data were processed

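RNA pools of 4 groups were labelled with Cy3, hybridised to 1-colour arrays, 1 array each, and scanned. The submitters' processing notes name Agilent Feature Extraction 10.7.3.1. Each deposited intensity is a spot's signal after background subtraction and detrending within its array, not normalized between arrays, with positions on mm9, per the file headers. The authors' deposited value table holds linear ratios of signal to 1 number per array, neither logged nor centred per gene, as found by comparing it with the scanner intensities. Its medians were 0.0794 (vehicle), 0.0949 (4-OHT), 0.0736 (vitamin E) and 0.0847 (lutein), and it served as an alternative.

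Control spots and outlier spots (137 to 164 of 59305 gene spots on an array) were left out, and none was saturated. Levels are log2 values of the deposited intensities less the log2 of the 75th percentile over gene spots, averaged over a probe's spots. A gene with several probes was represented by its brightest on average. Of 55681 probes 28331 (50.9%) had an accession in RefSeq (GRCm38.p6), and 1403 names were updated. A gene entered if well above background on at least 1 array of the pair. The floors for bounds were -4.28 with vehicle and -4.54 with vitamin E. The number of arrays limits the precision.

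The members and the 54 gene lists were chosen with earlier results of these data known. Of 1321 listed symbols 1306 were on the array. Named genes were the 20 highest and 20 lowest with a symbol, well above background on both arrays and not contradicted by another probe, the 6 largest bounds each way, up to 8 members of lists with 2 or more past 2-fold or a median beyond 0.5, up to 3 of other lists, and a fixed set. The text gives a selection, some genes are not reported here, and Arc, B2m, Cnga1, Col4a1, Csf1r, Gnat2, Mitf, Mki67, Top2a, Tyrp1 and Vgf, outside the rule, were chosen after their values were seen. Promoters came from RefSeq (250 bases upstream, 27025 genes). Alternatives were other scalings (median of detected probes, quantile, 8 of 10 spike-in probes), normexp with offset 50 (limma 3.58.1, R 4.3.3), mean of probes, other filters and other fold limits. Leaving out genes beside bright spots was added after seeing the data. Other steps used Python 3.11.15, NumPy 2.4.6, pandas 2.3.3 and matplotlib 3.10.9, and were tested on simulated data.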

Additional observations from a re-analysis of the deposited data

How the results depend on the processing

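No paired analysis was possible because there was a single array for each treatment, and none could be left out. The counts, 233 higher and 423 lower, were within 1.5 times under the median of detected probes (230 and 439), quantile normalization (262 and 312), spike-in scaling (322 and 323), the authors' deposited value table (246 and 396), the mean of probes (262 and 445) and without genes beside bright spots (168 and 326). They were beyond it with normexp (83 and 93), detection on both arrays (130 and 217 of 19871), no filter (876 and 1559 of 35739), and limits of 1.5-fold (940 and 1415), 3-fold (73 and 110) and 4-fold (39 and 57). Of counted genes 35.5% were higher, against 45.6% with quantile normalization, 49.9% with spike-in scaling and 47.2% with normexp, and the median of all genes was 0.09 with spike-in scaling.

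Of 486 recomputed list medians 479 stayed close to the main value. With no filter the median for pigment epithelium and melanin genes reversed to -0.13. Others that moved were, with normexp, AP-1 factors (0.43), EGR, NR4A and neuronal activity genes (0.40) and crystallin genes (-0.14), and with no filter, vitamin E and carotenoid handling (-0.21), estrogen receptors and targets (-0.10) and endothelial markers (-0.21). Of 87 named genes past 2-fold, 26 were under it with normexp, 3 with spike-in scaling, 2 with the mean of probes and 1 with quantile normalization. Signal near background limits the dim genes.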
